A study of Mus musculus with 4 samples.

Results

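*Pi16*+ fibroblasts were described by position and by gene across mouse back skin, day 4 wounds and cheek (buccal) mucosa. They were selected on measured values, as cells with at least 10 transcripts that held 2 or more transcripts of *Pi16* and 2 or more of *Pdgfra* and *Col1a1* together. There were 7559 such cells among 426404 cells and among 144937 fibroblasts, a fibroblast being any cell that met the same rule without *Pi16*. The comparison population, called other fibroblasts, was the 127226 fibroblasts with no *Pi16* transcript. The 10152 fibroblasts with exactly 1 *Pi16* transcript stayed out of both.

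*Pi16* encodes a secreted peptidase inhibitor. Fibroblasts that express it together with *Cd34* and *Dpp4* are known from the outer sheath (adventitia) of vessels, the fascia under the skin and the septa around muscle and fat. They occur in many tissues, are often called universal or adventitial fibroblasts, and are regarded as a source of more specialised fibroblasts. The dermis above them holds papillary fibroblasts under the epidermis and the dermal papilla and sheath cells of the hair follicle, which carry other genes.

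The data were Xenium images, in which single transcripts of a 328-gene panel are counted where they lie in a tissue section. The 17 sections lay on 4 slides. Skin came from Tet-On TRE-*Pitx1*/*Krt5*-rtTA mice, in which doxycycline switches on *Pitx1* in basal keratinocytes, where the *Krt5* promoter is active. The study describes the induced expression as limited to keratinocytes. Littermates had normal chow (Control) or doxycycline chow (PITX1+) for 6 weeks from the resting phase of the hair cycle. Unwounded skin was held in sections Control 1, Control 2, PITX1+ 1 and PITX1+ 2 (females) and Control 3, PITX1+ 3 and PITX1+ 4 (males). Wounded male skin, taken 4 days after wounding, gave 1 Control wound and 2 PITX1+ wounds. The 7 buccal sections came from Control mice, the group on normal chow, from males and females, with the sex not given per section. The labels name tissue and sex for each slide but no condition for each section, so conditions follow from the order of sections on the slide, and they were checked against cell numbers in the study's supporting data. A legend of the study counts the unwounded PITX1+ sections as mice and the buccal sections as mucosae, but the labels tie no section to an animal. Where sections share one, p-values measure a spread between sections that may be technical.

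Whole sections held between 474847 and 749248 transcripts in Control skin, 2832562 to 5581930 in PITX1+ skin, 136365 to 2368603 in buccal mucosa and 1622746 to 5430303 in wounds. The induced gene did not follow the assigned condition in every section. Keratinocytes held 8.16 and 10.8 *Pitx1* transcripts per 10000 in PITX1+ 4 and PITX1+ 3 against 0.131 in Control 3, but only 0.474 and 0.789 in PITX1+ 1 and PITX1+ 2 against 0.572 and 0.565 in Control 1 and Control 2. The sections assigned PITX1+ on the female slide thus went against that assignment by this measure, and the shares, densities, *Pi16* levels and counts of called genes that rest on them are given without them too. The PITX1+ sections then left are male, while Control 1 and 2 are female and on another slide. For shares, densities and gaps between populations, condition is then mixed with slide and sex. Fits with slide as covariate then rest on Control 3 against PITX1+ 3 and 4. Buccal 3 also stood apart, with 10 keratinocytes among its 2449 cells. Pairs of slides shared 1 to 7 cell identifiers.

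Among *Pi16*+ fibroblasts, 3195 held 2 *Pi16* transcripts, 2402 held 3 or 4, and 1962 held 5 or more, up to 48. Just outside the limit, cells with 1 transcript of *Pi16* had a median of 71 transcripts of all genes, and just inside it, cells with 2 had a median of 82. On the other side of the rule, 1022 cells had enough *Pi16* but only 1 *Pdgfra* or *Col1a1* transcript, while 995 members had exactly 2. The minimum of 10 transcripts kept out 2 cells. These values describe the selection and are not findings.

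The label was checked on genes that mark other cells. Transcripts of 8 keratinocyte markers were lower in *Pi16*+ than in other fibroblasts in all 7 skin sections, at 15.3 to 102 per 10000 against 187 to 1162. Endothelial markers were lower in 6 of the 7, at 21.8 to 77.3 against 42.6 to 96.7. *Des*, a filament gene of muscle, ran the other way, with 191 to 1211 in *Pi16*+ fibroblasts and 60.3 to 408 in other fibroblasts of skin, higher in 6 of 7 sections. Of 4047 *Pi16*+ fibroblasts in skin, 22.4% carried 3 or more *Des* transcripts that outnumbered *Pdgfra* and *Col1a1*, against 3.03% of other fibroblasts. For macrophage markers these shares were 11% and 7.0%, and for keratinocyte markers 1.24% and 16.4%. Macrophage markers in sum were higher in *Pi16*+ fibroblasts in 6 of 7 skin sections, at 167 to 392 against 146 to 309. In buccal mucosa 48.2% of *Pi16*+ and 60.7% of other fibroblasts also met the rule for another cell type, 37.5% and 41.4% that for skeletal muscle. Among skin cells that did not meet the fibroblast rule, 2 or more *Pi16* transcripts were found in 0.0574% of keratinocytes at a median of 68 transcripts per cell, in 0.541% of endothelial cells at a median of 62, in 2.62% of macrophages at a median of 36 and in 2.81% of skeletal muscle cells at a median of 39. The share was 4.56% of fibroblasts at a median of 50. With cells that met both rules counted, it was 4.17% of macrophages and 8.58% of muscle cells, the latter above the share in fibroblasts. In buccal mucosa the shares outside fibroblasts were 0.0886% of keratinocytes, 1.34% of muscle cells and 3.01% of macrophages, against 13.7% of fibroblasts.

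*Pi16*+ fibroblasts made up a larger share of the fibroblasts in buccal mucosa than in Control skin. They were 5.72%, 0.921% and 4.00% of fibroblasts in Control 1 to 3 (3.55% ± 2.43, SD, n = 3). In the 7 buccal sections the lowest share was 11.2%, the median 12.4% and the highest 20.2% (14.1% ± 3.39, SD, n = 7). Every buccal section lay above every Control section, and the difference was 10.5 percentage points (two-sided exact permutation test, p = 0.0167, the smallest that 3 sections against 7 allow). Without any 1 of the Control sections the p was 0.0556, again the smallest possible. Depth moved with this result, since the median fibroblast with no *Pi16* held 57 to 116 transcripts in buccal sections and 30 to 35 in Control sections. Among fibroblasts with at least 40 transcripts it was 9.68 points with 7 of 7 buccal sections above all Control sections (exact permutation p = 0.0167). With each of these cells also thinned to 40 transcripts it was 3.65 points with 3 of 7 above (exact permutation p = 0.15). Counting cells with 1 or more *Pi16* transcripts in place of 2, the difference among the same cells was 15.0 points before thinning (exact permutation p = 0.0333) and 8.002 points after it (4 of 7 above, exact permutation p = 0.133). Set against all cells rather than fibroblasts it was 1.02 points (exact permutation p = 0.167), fibroblasts being 14.9% of cells in buccal sections and 35.3% in Control skin. Slide and tissue cannot be told apart here.

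In PITX1+ skin the shares were 3.88%, 2.45%, 5.46% and 11.5% in sections 1 to 4 (5.81% ± 3.96, SD, n = 4). They overlapped the Control range, and only PITX1+ 4 lay above it. The difference of 2.26 points was not larger than the spread between sections (exact permutation p = 0.571). Without PITX1+ 1 and PITX1+ 2 it was 4.91 points (exact permutation p = 0.40), and among fibroblasts with at least 40 transcripts 0.933 points (exact permutation p = 0.914). Thinned to 40 transcripts, these cells gave a difference of 0.0975 points (exact permutation p = 0.971). With 1 or more *Pi16* transcripts as the limit it was -0.782 points before thinning (exact permutation p = 0.857) and -1.91 points after it (exact permutation p = 0.686). Within slides, PITX1+ 1 and 2 lay between Control 2 and Control 1, and PITX1+ 3 and 4 both lay above Control 3.

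Per area of tissue, the order was different. Control sections held 43.6, 8.57 and 35.0 *Pi16*+ fibroblasts per mm2. The PITX1+ sections held 67.2, 69.6, 82.6 and 207.2, all above Control, a difference of 77.6 per mm2 (exact permutation p = 0.0571, the smallest that 3 against 4 allow). PITX1+ 3 and 4 alone exceeded Control by 115.9 per mm2, with p = 0.20, the smallest the exact permutation test allows there. Only Control 3 shares their slide and sex. Buccal sections held 45.3 to 145.1 per mm2, 62.1 more than Control on average (exact permutation p = 0.0167). The median area of a *Pi16*+ fibroblast was 375 to 470 µm2 in Control, 328 to 368 µm2 in PITX1+ and 160 to 434 µm2 in buccal sections, and that of other fibroblasts 304 to 371, 108 to 212 and 137 to 189 µm2. As a share of all cells, *Pi16*+ fibroblasts were 2.26% in PITX1+ and 1.13% in Control sections (exact permutation p = 0.457). Control sections held 11778 to 17335 cells on 5.37 to 6.015 mm2, PITX1+ sections 28005 to 75268 cells on 7.01 to 11.8 mm2. Other fibroblasts had medians of 30 to 35 transcripts in Control and 34 to 84 in PITX1+ sections. The parts of cell size, of all cells per area and of depth in these densities were not tested. In the wounds, *Pi16*+ fibroblasts were 7.80% (Control wound; exact 95% interval 7.19 to 8.45), 7.31% (6.86 to 7.79) and 2.79% (2.59 to 2.99) of fibroblasts, the last 2 in PITX1+ wounds 1 and 2. These intervals cover counting error only.

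**Figure D1:**
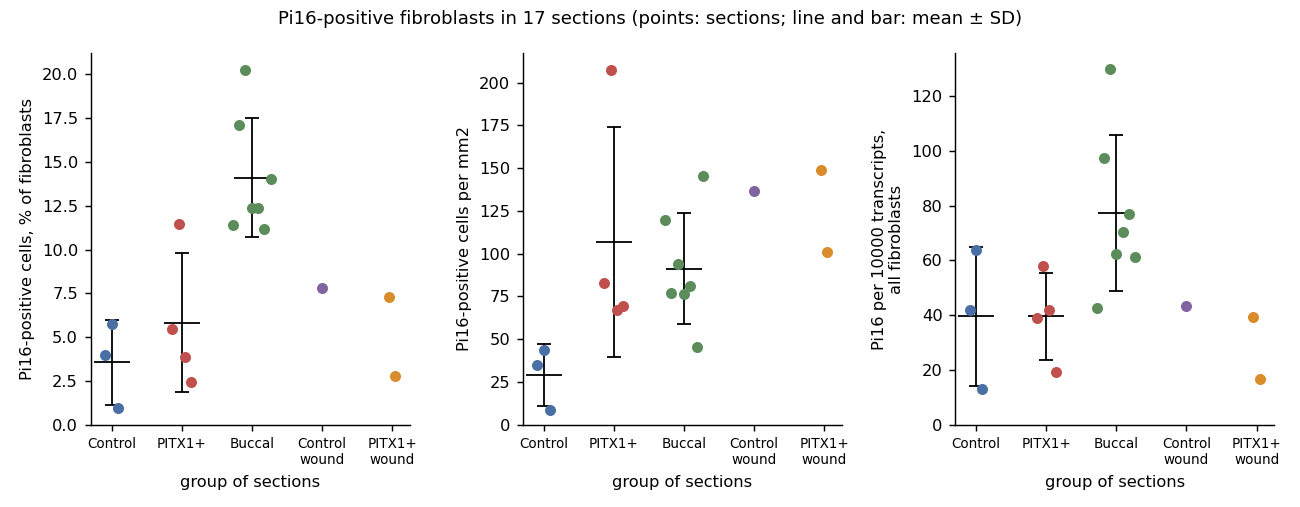
The share of fibroblasts that were *Pi16*+ (left, percent), their number per mm2 of tissue (middle) and the *Pi16* level in all fibroblasts (right, transcripts per 10000) in each of 17 sections by group, with the mean and SD as a line and bar. The 7 buccal shares, 11.2% to 20.2%, lie above the 3 Control shares, while PITX1+ 4 stands above the other PITX1+ sections at 207.2 cells per mm2.

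The *Pi16* level over all fibroblasts needs no limit per cell. It was 63.9, 13.2 and 41.7 per 10000 transcripts in Control 1 to 3, 41.8, 19.4, 39.1 and 57.9 in PITX1+ 1 to 4, and 42.5 to 129.9 with a median of 70.5 in buccal sections. All 3 groups overlapped. The fits scaled counts by TMM, with slide as covariate for PITX1+, so their values need not follow these unscaled levels. The log2 difference was -0.45 for PITX1+ (SE 0.453, edgeR adjusted p = 0.57) and 0.96 for buccal sections (SE 0.439, adjusted p = 0.0973), and neither passed the threshold of 0.05. Without PITX1+ 1 and 2 the first was -0.34 (edgeR adjusted p = 0.785). The unscaled levels did not show that sign, at 39.1 and 57.9 in PITX1+ 3 and 4 against 41.7 in Control 3 on the same slide. The wounds had 43.5, 39.5 and 16.7.

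*Pi16*+ fibroblasts lay deep in the skin, far from keratinocytes and close to skeletal muscle. In skin, the median distance to the nearest skeletal muscle cell was 34.7, 29.0 and 18.9 µm in Control 1 to 3 and 45.0, 57.6, 20.1 and 21.1 µm in PITX1+ 1 to 4. For other fibroblasts it was 53.0, 78.1, 93.7, 174, 169.6, 123 and 88.6 µm in the same order. *Pi16*+ fibroblasts were nearer to muscle in 7 of 7 sections, with means of 32.3 and 111 µm (exact sign-flip permutation p = 0.0156, the smallest for 7 sections; adjusted over 6 cell types, p = 0.0312). The distance to keratinocytes was larger in 7 of 7 sections, 83.3 against 31.1 µm, and the distance to macrophages smaller in 7 of 7, 27.4 against 37.7 µm, with the same exact p. The section map shows the cells lined up along the muscle sheet at the base of the skin.

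**Figure D2:**
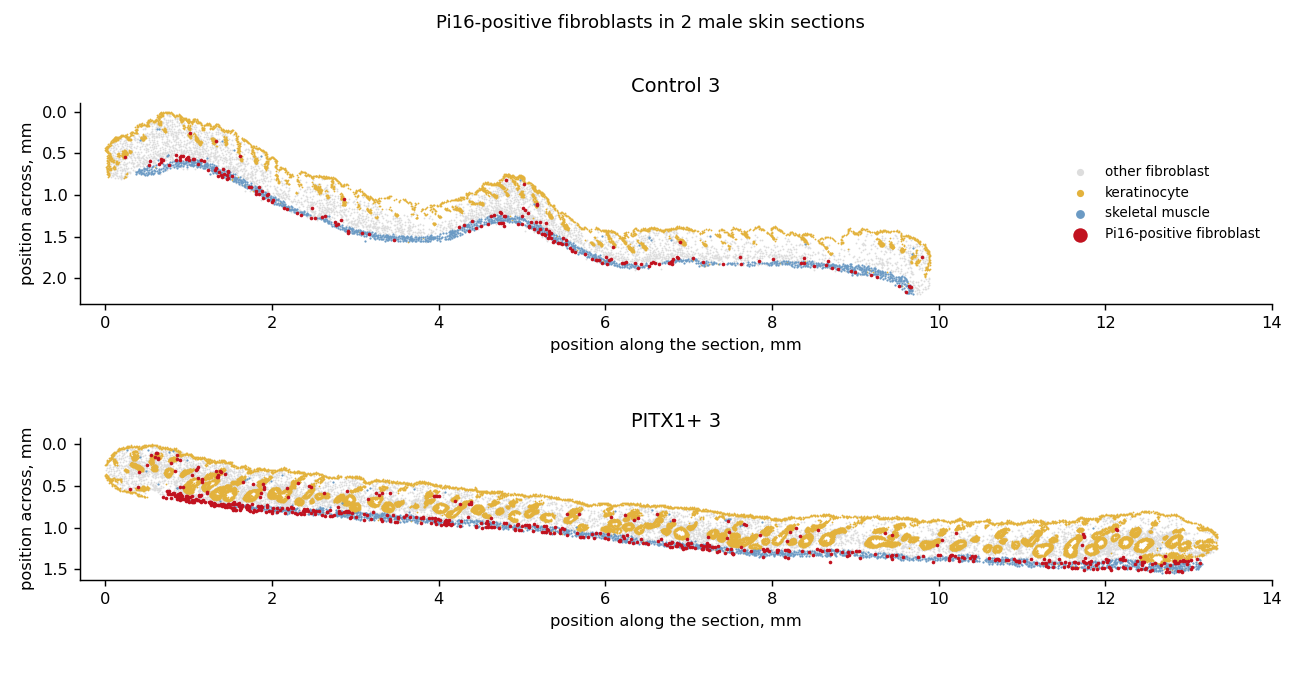
Positions in mm of keratinocytes, skeletal muscle cells and *Pi16*+ fibroblasts in Control 3 and PITX1+ 3, the epidermis being at the top. The 188 and 622 *Pi16*+ fibroblasts follow the muscle layer at the bottom of each section.

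In the buccal mucosa, which is threaded with muscle, no such nearness to muscle was measured. The mean distance to muscle was 26.3 µm for *Pi16*+ and 21.1 µm for other fibroblasts (exact permutation p = 0.531), and they were nearer in 2 of 7 sections. The distance to endothelial cells was larger in 7 of 7 sections, but by 2.80 µm only, 19.6 against 16.8 µm (exact permutation p = 0.0156; adjusted over 6 cell types, p = 0.0938). Keratinocytes were farther in 6 of 7 sections, 75.8 against 53.7 µm, and macrophages nearer in 6 of 7, 29.2 against 35.1 µm, each with an exact permutation p of 0.0469 that did not pass after adjustment (p = 0.0938). Over all 14 unwounded sections *Pi16*+ fibroblasts were farther from keratinocytes in 13 (79.5 against 42.4 µm, adjusted exact permutation p = 0.0022), nearer to macrophages in 13 (28.3 against 36.4 µm, adjusted p = 0.0022) and nearer to muscle in 9 (29.3 against 66.3 µm, adjusted p = 0.0388). The nearness to muscle over these 14 sections lost its call with a limit of 3 *Pi16* transcripts, with few markers of other cell types and without cells that met another type's rule (adjusted exact permutation p = 0.0513, 0.0854 and 0.0571), and so did that to macrophages with few markers (0.0854). Distances to endothelial, smooth muscle and Schwann cells did not pass (exact permutation p = 0.586, 0.12 and 0.537). Without Buccal 3 the 3 adjusted p-values of these exact tests were 0.00439, 0.00439 and 0.0464. In the wounds, *Pi16*+ fibroblasts lay 43.4, 27.2 and 72.6 µm from muscle and other fibroblasts 101, 127 and 124 µm.

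**Figure D3:**
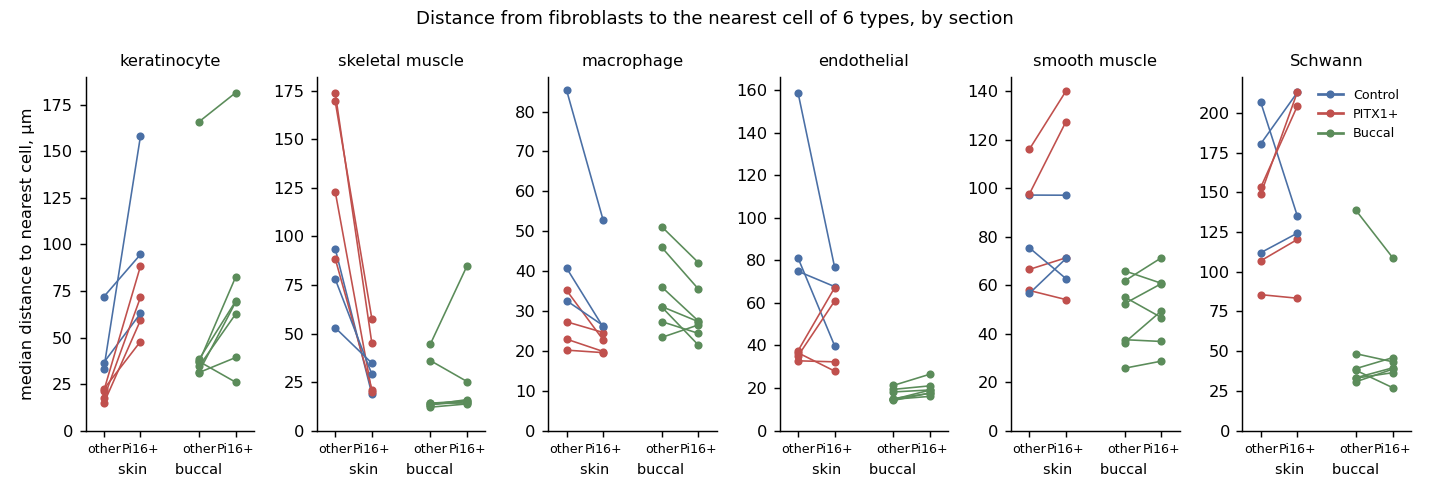
Median distance in µm from other and from *Pi16*+ fibroblasts to the nearest cell of 6 types, with 1 line per unwounded section, skin at the left and buccal at the right of each panel. In the skeletal muscle panel all 7 skin lines fall, while buccal lines stay near their start except that of Buccal 6, which rises to 84.9 µm.

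*Pi16*+ fibroblasts also lay near each other. Of the fibroblasts 25 to 75 µm away from a *Pi16*+ fibroblast, 20.6% were *Pi16*+ themselves, against 6.74% around other fibroblasts (means of 14 sections). The share was higher in 14 of 14 sections (exact sign-flip permutation p = 0.000122, the smallest possible). In skin the values were 15.0% and 2.83%, and in buccal mucosa 26.2% and 10.7%, higher in 7 of 7 sections each. Buccal 3 had the widest gap, 44.6% against 4.93%. The wounds showed 21.7% against 5.38%, 22.5% against 4.08% and 11.2% against 1.87%. With few markers of other cell types the share was higher in 13 of 14 unwounded sections and in 6 of 7 skin sections. Central cells and counted neighbours were set by the same *Pi16* limit, so these shares are a description. No comparison was made within the layer along the muscle, and its part in them was not tested.

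Genes the rule did not use separated *Pi16*+ from other fibroblasts in skin, with most adventitial genes higher and several papillary and follicle genes lower. The test compared both populations within the 7 skin sections. Levels are transcripts per 10000 of the 325 remaining genes, and a gene was called at an adjusted p below 0.05. Among 317 genes tested, 40 were higher (12.6%) and 89 were lower (28.1%) in *Pi16*+ fibroblasts, with a median log2 difference of -0.26 over all genes. Without TMM scaling the split was 33 higher and 135 lower, every gene shifting by -0.36 on the log2 scale at the median. Of 8 genes on the adventitial list, 7 were higher, with a median log2 difference of 1.78. The gene lists were chosen with earlier results of these data known. Counts over lists, here and below, are thus a description and no independent support. Without PITX1+ 1 and PITX1+ 2, 95 genes were called and the same number of adventitial genes, 7 of 8, was higher, while *Igfbp5*, *Ptx3*, *Igf1*, *Lum*, *Klf4*, *Spp1* and *Mmp12* lost their calls. Genes known from macrophages were among the 40 higher ones, with *Retnla* (2.17), *Lyve1* (1.5), *Cd209f* (1.08) and *C1qa* (0.76), and the part of macrophage transcripts in the result was not tested.

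*Anxa3*, a calcium-dependent membrane-binding protein, had the largest rise. Its level in *Pi16*+ fibroblasts was 60.1, 46.9 and 121 in Control 1 to 3 and 77.8, 99.8, 136 and 121 in PITX1+ 1 to 4, against 8.09 to 46.0 with a median of 14.6 in other fibroblasts. The lowest *Pi16*+ section thus exceeded the highest section of other fibroblasts, and the log2 difference was 2.6 (SE 0.263, adjusted p = 7.25e-06). *Cd34*, the sialomucin by which adventitial fibroblasts are often recognised, had levels of 131, 175, 275, 83.0, 90.0, 242 and 236 in the same order, against 18.5 to 200.3 with a median of 65.2 (log2 difference 1.59, SE 0.277, adjusted p = 0.000429). Here the ranges overlapped between sections, but each section had more *Cd34* in its *Pi16*+ cells.

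*Igfbp6*, which binds insulin-like growth factor 2, reached 464, 247, 92.3, 259, 285, 106 and 109 against 17.9 to 156 in other fibroblasts (log2 difference 2.45, adjusted p = 4.34e-05). *Tnxb*, tenascin X of the loose connective tissue, was at 256 to 440.1 with a median of 381 against 81.0 to 281 (1.62, adjusted p = 0.000489). The female sections had the highest *Igfbp6* levels, whereas *Tnxb* varied little among the 7 sections. *Col14a1*, a fibril-associated collagen, was higher at 71.8 to 184 against 11.5 to 78.6 (log2 difference 1.93). *Plac8*, at 4.26 to 30.2 against 3.47 to 8.41, differed by 2.13 and *Efemp1*, an elastic-fibre protein, at 17.1 to 70.2 against 11.5 to 37.9, by 1.34. *Penk*, the precursor of enkephalins, was the list's exception, with 18.2 to 162 in *Pi16*+ and 24.8 to 123 in other fibroblasts (-0.22, adjusted p = 0.445).

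Of the 8 genes on an interstitial fibroblast list, 5 were higher (median log2 difference 0.65). *Gpx3*, a secreted glutathione peroxidase, was at 515, 516 and 753 in the Control sections and at 478, 607, 538 and 418 in PITX1+ 1 to 4. Other fibroblasts had 50.5 to 475 with a median of 125 (log2 difference 2.22, SE 0.429, adjusted p = 0.000904). *Abca8a*, a lipid transporter, was at 43.3 to 158 against 12.6 to 53.7 (1.97), and *Angptl1*, an angiopoietin-like protein, at 13.4 to 35.6 against 1.85 to 20.2 (1.5). *Igf1* and *Lum*, a small leucine-rich proteoglycan, rose less, by 0.76 and 0.55 on the log2 scale, and *Lum* turned sign with few markers of other cell types (-0.39) and far from keratinocytes (-0.09), while *Cxcl12*, *Gstm5* and *Rora* did not pass (0.15, 0.05 and -0.03). Of 13 matrix genes 5 were higher and none was lower. Among them *Fn1*, fibronectin, was at 259.5 to 1525 against 126 to 492 (log2 difference 1.59, SE 0.292), and its levels differed more between slides than between conditions.

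None of the 8 papillary, papilla and sheath genes was higher by this test and 5 were lower (median log2 difference -1.32). *Ptch1*, the Hedgehog receptor and target, was at 4.26 to 16.1 in *Pi16*+ and 7.41 to 112 in other fibroblasts (log2 difference -1.87, adjusted p = 0.000163). *Lrrc15* fell by 1.95, the Wnt inhibitor *Wif1* by 1.47, *Ptn*, pleiotrophin, by 1.42 and *Crabp1*, a retinoic acid-binding protein of papilla cells, by 1.22 on the log2 scale. *Dkk2*, *Bmp4* and *Wnt5a* did not pass (-0.25, 0.34 and -0.55). *Sostdc1*, an inhibitor of Wnt and BMP signals, fell by 3.22 and *Crabp2* by 2.6.

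Of 10 genes of the insulin-like growth factor system 4 were higher and 1 lower. *Igfbp5* was higher in 5 of 7 sections (log2 difference 1.61, adjusted p = 0.0175) and *Igfbp2* was lower (-2.82), whereas *Igfbp4* did not pass (0.44). Among 10 growth factor receptors, 3 were higher and 2 lower, led by *Tgfbr3*, the TGF-beta co-receptor betaglycan, at 36.7 to 81.7 against 18.4 to 48.2 (1.39), and *Cntfr* (-1.43). Cell cycle genes were lower for 7 of 10 (median -0.90) and lipid and retinoid genes lower for 5 of 14 with 1 higher. Of 17 cytokine and acute phase genes 2 were higher, the B-cell attractant *Cxcl13* (1.76) and *Ptx3* (1.5), and *Spp1* was lower (-1.18). Among 7 matrix proteases and inhibitors *Timp3* was higher (0.80) and *Mmp12* lower (-1.21). Of 9 immediate early genes *Jun* and *Klf4* were higher (0.90 and 0.75), and of 5 contractile genes *Des* was higher (2.09) and *Acta2* lower (-1.77). The remaining lists gave 1 higher and 1 lower of 13 TGF-beta and BMP genes and 1 higher and 2 lower of 16 Wnt and Hedgehog genes. The largest falls were those of epidermal genes, such as *Krt5* at 0.727 to 20.3 against 38.2 to 198 (-3.36), *Krt77* (-4.41) and *Krt1* (-4.42).

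Markers of muscle and epidermis moved with position, so the same test was run on cells in like places. Among fibroblasts within 50 µm of muscle, *Des* no longer passed (log2 difference 0.56, adjusted p = 0.142), while *Anxa3* differed by 2.10, *Cd34* by 1.45, *Tnxb* by 1.42 and *Gpx3* by 1.49. Among fibroblasts over 50 µm from a keratinocyte the differences were 2.02 for *Anxa3*, 1.15 for *Cd34*, 1.02 for *Tnxb* and 1.02 for *Gpx3*. With cells that held few markers of other types, 52 of 167 genes were called and *Anxa3* differed by 3.08, *Cd34* by 0.98 and *Gpx3* by 1.74. In each of these settings 7 adventitial genes were higher, and *Penk* was lower with few markers.

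**Figure D4:**
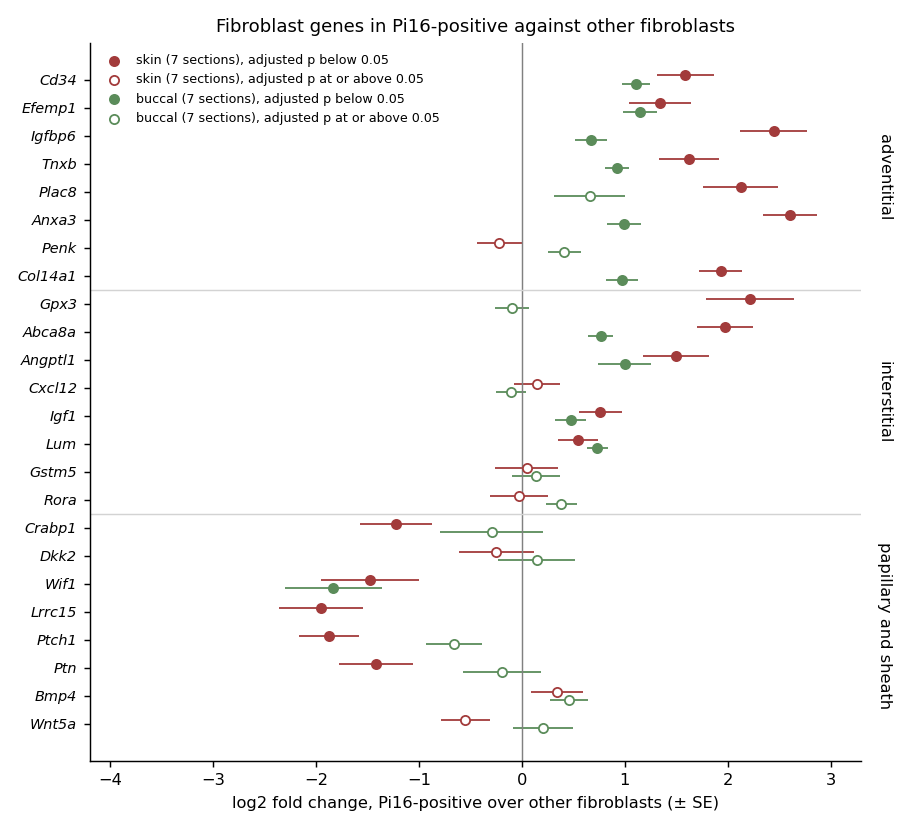
Log2 fold change (± SE) of *Pi16*+ over other fibroblasts for the adventitial, interstitial and papillary lists, in skin (7 sections) and buccal mucosa (7 sections), filled where the adjusted p is below 0.05. Adventitial genes lie to the right of 0 in both tissues apart from *Penk* in skin (-0.22), and *Gpx3* is far to the right in skin (2.22) but near 0 in buccal mucosa (-0.10).

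Adventitial genes were also counted per cell, with cells pooled over sections. Cells with under 40 transcripts were left out (434 *Pi16*+ and 32467 other fibroblasts of skin, 39 and 961 of buccal mucosa) and each remaining cell was thinned to 40. Then 22.2% of 3613 *Pi16*+ fibroblasts of skin held 4 or more of the 8 adventitial genes and 8.11% held none. Of 46888 other fibroblasts 2.29% held 4 or more and 43.2% none. In buccal mucosa 24.5% of 1259 *Pi16*+ and 11.4% of 6003 other fibroblasts held 4 or more. Of the 3613 skin cells, 1404 came from PITX1+ 4. Genes of higher level are found in more cells, and whether they shared cells beyond that was not tested. Levels of most adventitial genes also rose with the number of *Pi16* transcripts per cell, a count that the rule itself uses, while *Penk* fell. The median over 7 skin sections of *Anxa3* was 14.6, 31.9, 58.3, 90.2 and 118 in fibroblasts with 0, 1, 2, 3 to 4 and 5 or more *Pi16* transcripts. For *Cd34* it was 65.2, 94.8, 174, 146 and 281, so its order broke at 3 to 4 transcripts, and for *Igfbp6* 34.4, 83.2, 194, 266 and 202, highest below the last step. For *Penk* it was 51.5, 35.4, 34.3, 20.7 and 16.7, falling at each step. Cells with more *Pi16* also had more transcripts in all, and these medians are given as a description.

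In buccal mucosa most adventitial genes were higher in *Pi16*+ fibroblasts as well. Of 192 genes tested, 32 were higher (16.7%) and 35 lower (18.2%), with a median of -0.07 over all genes, and 20 and 51 without TMM scaling, which shifted genes by -0.22 at the median. Of the 8 adventitial genes, 6 were higher (median log2 difference 0.95), and with few markers of other cell types 2 of the 5 that could be tested. *Cd34* was at 271, 304 and 375 (lowest, median and highest of 7 sections) against 106, 165 and 220.0 in other fibroblasts, with no overlap (log2 difference 1.11, SE 0.134, adjusted p = 0.000367). *Efemp1* was at 33.6, 47.6 and 69.2 against 16.6, 25.9 and 29.9 (1.15, SE 0.167), again with no overlap. *Tnxb* differed by 0.92, *Col14a1* by 0.97, *Anxa3* by 1.00 (30.7 to 66.7 against 20 to 62.8) and *Igfbp6* by 0.67. *Plac8* and *Penk* did not pass (0.66, adjusted p = 0.171, and 0.41, adjusted p = 0.0715).

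*Fn1* led the buccal list of matrix genes, of which 8 of 12 were higher and *Tnc*, tenascin C, was lower (-1.79). Its levels were 255, 319 and 409 against 108, 148 and 228 (log2 difference 1.21, SE 0.155, adjusted p = 0.000367). Of 8 interstitial genes 4 were higher, with *Angptl1* at 73.5 to 224 against 33.9 to 149 (1.00), *Abca8a* at 139.7 to 233 against 101 to 179.8 (0.77), *Lum* (0.73) and *Igf1* (0.47). The call for *Igf1* was lost in 10 of 19 alternatives, and its sign turned in 2 more, to -0.41 with few markers and -0.03 without cells that met another type's rule. *Igfbp4* was higher at 140.0 to 227 against 83.8 to 138 (1.08), and *Gpx3* was not, at 11.2 to 334 against 26.2 to 478 (-0.10, adjusted p = 0.687). *Des* was at 234 to 909.6 against 441 to 1087 (-0.17, adjusted p = 0.377). Among genes lower in every section, the largest falls were in the hemidesmosome genes *Col17a1* (-2.52) and *Itgb4* (-2.05), the Schwann cell genes *Ncmap*, *Kcna1* and *Drp2* (-2.31, -2.19 and -2.10), *Igfbp2* (-2.08) and the desmosome gene *Dsg3* (-2.01). Of 7 papillary genes *Wif1* passed (-1.83). Schwann markers in sum were lower in 7 of 7 sections, 49.5 to 90.9 against 91.4 to 158, and their part in these results was not tested. With few markers of other cell types only 54 genes could be tested, of which 7 were called, and 22 were called when cells that also met a rule for another cell type were left out.

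Of the other lists in buccal mucosa, 4 of 10 insulin-like growth factor genes were higher and 1 lower, 2 of 10 TGF-beta and BMP genes higher and 1 lower, and 2 of 9 growth factor receptors higher and 1 lower. *Mmp2* was the 1 gene of 4 proteases that passed (0.51, but -0.39 with few markers), and *Klf4* the 1 of 6 immediate early genes (0.67). Wnt and Hedgehog genes were lower for 2 of 8 and lipid and retinoid genes for 1 of 10. By edgeR none of 6 cytokine, 5 contractile or 5 cell cycle genes passed.

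The difference between *Pi16*+ and other fibroblasts was itself tested between the tissues. The skin side held all 7 skin sections, 4 PITX1+ and 3 Control, while the buccal sections came from Control mice. Slide and tissue cannot be told apart in this test, and Control skin was not tested alone. The log2 difference in skin minus that in buccal mucosa was called above 0 for 16 of 297 genes (5.39%) and called below 0 for 12 (4.04%), with a median of -0.07 over all genes. A value below 0 is not a wider gap in buccal mucosa, since *Krt5*, for one, fell by 3.36 in skin and by 1.72 in buccal mucosa. *Anxa3* (log2 difference of differences 1.65, SE 0.272, adjusted p = 0.0015), *Igfbp6* (1.81) and *Col14a1* (0.97) from the adventitial list rose more in skin, as did *Gpx3* (2.35, SE 0.444, adjusted p = 0.00202) and *Abca8a* (1.25). Within skin, the gap in PITX1+ minus that in Control sections was 2.36 for *Gpx3*, which passed. It was 1.65 for *Igfbp6*, 1.12 for *Anxa3*, 1.06 for *Abca8a* and -0.06 for *Col14a1*, none of which passed. The part of the PITX1+ sections in the difference between tissues was not tested. *Cd34*, *Efemp1* and *Tnxb* did not differ past the threshold (0.51, 0.24 and 0.74, adjusted p = 0.236, 0.781 and 0.0733). *Des* differed by 2.29 and epidermal *Lor*, loricrin, by -3.36. With few markers of other cell types edgeR called 0 of 114 genes (14 at an unadjusted p under 0.05; DESeq2 was run on the full set, where it called 42), and among cells near muscle it called 6. Without PITX1+ 2, PITX1+ 4 or PITX1+ 1 and 2 together, the 28 calls became 17, 18 and 20.

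Between PITX1+ and Control skin, *Igfbp4* was the 1 gene called within *Pi16*+ fibroblasts. It encodes a binding protein that keeps insulin-like growth factors from their receptor. Its level was 28.9, 21.3 and 21.8 per 10000 in Control 1 to 3 (24.0 ± 4.24, SD, n = 3) and 83.3, 104, 59.6 and 58.0 in PITX1+ 1 to 4 (76.3 ± 21.9, SD, n = 4). No PITX1+ section overlapped the Control sections, and the fold was 3.33 (log2 difference 1.73, SE 0.295, edgeR with slide as covariate, adjusted p = 0.00643). Other fibroblasts had 22.4, 11.5 and 27.0 in Control and 35.1, 72.7, 117 and 85.6 in PITX1+, and the change did not differ from theirs past the threshold (0.34, adjusted p = 0.902). The call was lost without PITX1+ 1 (adjusted p = 0.060) or PITX1+ 3 (0.063), without both female PITX1+ sections (1.29, adjusted p = 0.241), with a limit of 3 *Pi16* transcripts (0.077), near muscle (0.116), with few markers of other cell types (0.195) and without the slide covariate (0.584).

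Of 239 genes tested in *Pi16*+ fibroblasts 1 was thus higher (0.418%) and 0 were lower (0%) by edgeR, against 25 at an unadjusted p under 0.05 and 3 called by DESeq2. The count was 12 without Control 3, 4 without Control 1, 2 without Control 2, 3 without PITX1+ 4 and 0 without PITX1+ 1 or PITX1+ 3. The median over all genes was 0.16, and Control 2 gave only 46 cells. No adventitial gene passed by edgeR: *Plac8* (0.81), *Efemp1* (0.75), *Anxa3* (0.50), *Cd34* (-0.45) and *Penk* (-1.34, adjusted p = 0.149) had adjusted p-values of 0.149 or more. *Penk* was called lower by DESeq2 (adjusted p = 0.0442), by edgeR over nuclei (0.0216) and by edgeR without Control 3 (0.00117), but not without PITX1+ 1 and 2 (-0.46, adjusted p = 0.977). The 10 cytokine genes tested all had positive values with none called by edgeR, where 60.7% of all genes tested were positive. *Cxcl13* was at 3.12, 0 and 7.27 in Control 1 to 3 and 13.0, 17.8, 16.6 and 17.9 in PITX1+ 1 to 4, with no overlap, but it did not pass (1.88, adjusted p = 0.134, and 1.11, adjusted p = 0.769, without PITX1+ 1 and 2). It passed in 5 of 21 alternatives, among them the one without Control 3 (2.72, adjusted p = 0.00904). *Ptch1* likewise did not overlap, at 4.26 to 5.47 and 6.78 to 16.1 (1.30, adjusted p = 0.34), and it was too low to be tested without PITX1+ 1 and 2. *Saa3*, an acute phase protein, was chosen after its values were seen: it stood at 288 and 72.7 in PITX1+ 1 and 2 but at 2.26 and 1.75 in PITX1+ 3 and 4, and at 0 to 1.56 in Control. Other fibroblasts of PITX1+ 1 and 2 had 211 and 52.3.

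The gap between *Pi16*+ and other fibroblasts was wider in PITX1+ skin for 2 of 325 genes (0.615%) and narrower for 0 (0%) by edgeR, with 43 at an unadjusted p under 0.05 and 2 by DESeq2. For *Gpx3*, *Pi16*+ fibroblasts kept 510 ± 81.3 in PITX1+ and 595 ± 137 in Control sections, while other fibroblasts had 82.6 ± 33.2 and 343 ± 146 (SD, n = 4 and 3). The log2 difference of differences was 2.36 (SE 0.397, adjusted p = 0.0162). For *Igfbp5* the corresponding levels were 349.9 ± 127 and 355 ± 257 in *Pi16*+ and 73.6 ± 21.7 and 297 ± 125 in other fibroblasts (2.71, SE 0.514, adjusted p = 0.0244). Among cells within 50 µm of muscle the edgeR values were 0.93 for *Gpx3* (adjusted p = 0.614) and 1.64 for *Igfbp5* (adjusted p = 0.0723). In the full set the difference lay mostly in the levels of other fibroblasts, and the part of their position in it was not tested. The median over all genes was 0.31, without TMM scaling genes shifted by -0.49 and no gene was called, and none was called near muscle, far from keratinocytes, or without Control 1, Control 2, Control 3 or PITX1+ 3, and 5 were called without PITX1+ 4. Without both female PITX1+ sections 14 genes were called and these 2 passed (2.06 and 2.11, adjusted p = 0.00921 and 0.00884). Condition is mixed with slide and sex there, so the larger count is a description. *Igfbp6*, *Plac8* and *Tnxb* followed without passing (1.65, 1.93 and 1.35, adjusted p = 0.0751, 0.0971 and 0.0971).

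Buccal *Pi16*+ fibroblasts had more *Igf2*, *Igfbp4* and *Angptl1* and less *Cyp26b1* and *Gpx3* than those of Control skin. Of 169 genes tested, 12 were higher (7.1%) and 25 lower (14.8%) in buccal sections, with a median of 0.03. Slide and tissue cannot be told apart in this comparison. The count was 73 without Control 3 and 22 without Control 2, and the split without TMM scaling was 16 and 17, with a shift of 0.25. Other fibroblasts also had more *Igfbp4* and *Angptl1* in buccal mucosa, by the levels given above. The gap between *Pi16*+ and other fibroblasts was tested between buccal mucosa and all 7 skin sections, the PITX1+ ones included. It did not differ past the threshold for *Igf2*, *Igfbp4*, *Angptl1* and *Cyp26b1* (edgeR adjusted p = 0.389, 0.236, 0.461 and 0.898). For *Gpx3* it did, and there the gap was also wider in PITX1+ than in Control skin (log2 difference of differences 2.36).

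Of 10 insulin-like growth factor genes 2 were higher and 1 lower. *Igf2*, a growth factor of fetal and some adult connective tissues, was at 27.1, 53.2 and 113 (lowest, median and highest) in buccal sections and at 5.47, 0 and 6.54 in Control 1 to 3 (log2 difference 3.25, SE 0.598, adjusted p = 0.00317). *Igfbp4* was at 140.0 to 227 with a median of 176 against 21.3 to 28.9 (2.58, SE 0.296, adjusted p = 0.00026), and *Igfbp3* at 10.3 to 41.3 against 42.9 to 189.7 (-2.23). None of these 3 overlapped between the tissues. *Angptl1*, at 73.5 to 224 against 24.2 to 35.6, was higher by 2.25, the growth factor *Ptn* by 3.11 and *Bmp4* by 1.55 on the log2 scale.

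*Cyp26b1*, an enzyme that breaks down retinoic acid, had the largest fall. It was at 112, 76.8 and 13.8 in Control 1 to 3 and at 0.933 to 7.82 in buccal sections (log2 difference -4.55, SE 0.674, adjusted p = 0.00114). *Rxra*, a retinoid receptor, was lower too (-1.90). *Gpx3* was at 515 to 753 in Control sections and at 11.2, 48.5 and 334 in buccal sections (-3.21), the highest being Buccal 3. The membrane-bound protease *Mmp14* (-2.25), *Fn1* (-1.45), *Tnc* (-2.74), the interleukin receptor *Il1r1* (-1.79) and *Egfr* (-1.15) were lower as well. From the adventitial list *Penk* (-2.0) and *Tnxb* (-0.67) were lower, the latter losing its call in 17 of 22 alternatives, as *Tnc* did in 12 of 20, whereas *Cd34* (0.42), *Anxa3* (-0.83) and *Igfbp6* (-1.23) did not pass.

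Genes of other cell types were on both sides of this comparison. The epithelial genes *Krt4*, *Mt4* and *Slpi* were higher in buccal *Pi16*+ fibroblasts (4.30, 4.39 and 3.86), as were endothelial *Adgrl4* (4.12) and the mast cell protease *Mcpt4* (2.72). *C1qa*, *Csf1r* and *Mgl2* of macrophages were lower (-2.61, -2.18 and -2.17), and macrophage markers summed to 61.7 to 116 in buccal and 167 to 392 in skin *Pi16*+ fibroblasts. Their part in the result was not tested. With few markers of other cell types 12 of 50 genes were called. Among the lists, 1 of 8 interstitial genes was higher and 1 lower, 2 of 6 papillary genes higher, 3 of 12 matrix genes lower, 1 of 4 proteases lower, 1 of 10 TGF-beta and BMP genes higher, 2 of 8 receptors lower and 2 of 10 lipid and retinoid genes lower. None of 4 cytokine, 6 Wnt and Hedgehog, 5 immediate early, 5 contractile or 3 cell cycle genes was called by edgeR.

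**Figure D5:**
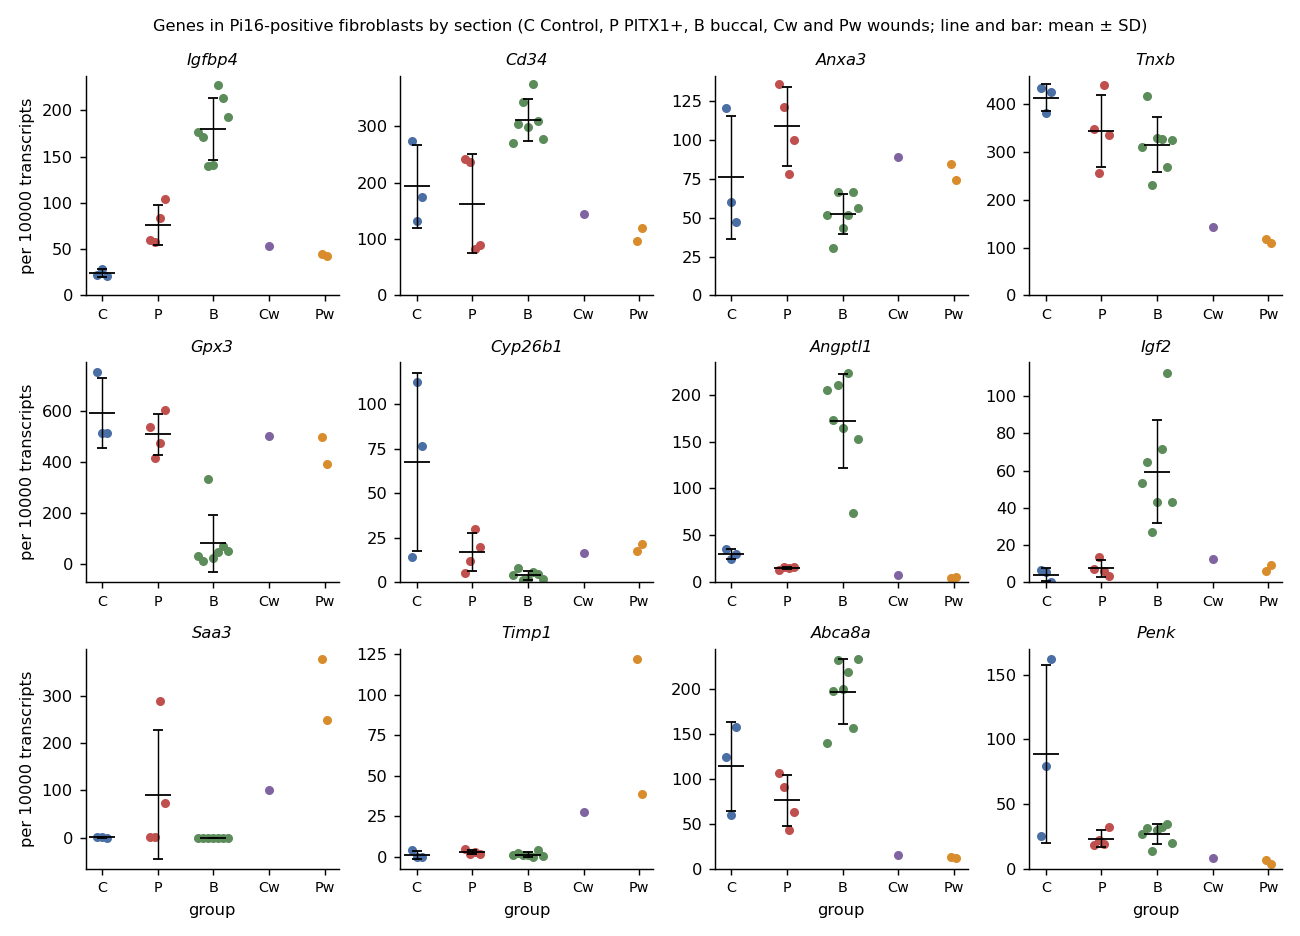
Levels of 12 genes in *Pi16*+ fibroblasts, in transcripts per 10000, for each section by group (C Control, P PITX1+, B buccal, Cw and Pw Control and PITX1+ wounds), with the mean and SD as a line and bar. *Igfbp4* rises from Control (21.3 to 28.9) over PITX1+ (58.0 to 104) to buccal sections (140.0 to 227), *Cyp26b1* is lowest in buccal sections, and *Saa3* is high in wounds and in 2 PITX1+ sections.

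In day 4 wounds, *Pi16*+ fibroblasts had far more acute phase, chemokine and protease transcripts and fewer of several adventitial genes. Whether these changes differed from those of other fibroblasts was not tested. The 3 wounds were compared with Control 3, PITX1+ 3 and PITX1+ 4, all male, with condition as a covariate. Unwounded and wound sections were not paired, and values below list the unwounded sections first. Of 234 genes tested 55 were higher (23.5%) and 34 lower (14.5%), with a median of 0.09. Slide and wounding cannot be told apart.

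*Saa3* was at 1.45, 2.26 and 1.75 in the unwounded sections and 101, 378 and 249.7 in the Control wound and PITX1+ wounds 1 and 2 (log2 difference 7.25, SE 0.383, adjusted p = 1.75e-08). Other fibroblasts had 0.617, 3.46 and 1.53 in the unwounded and 63.3, 99.99 and 159 in the wound sections. Of 15 cytokine and acute phase genes 12 were higher (median log2 difference 2.19) and none was lower. *Cxcl5*, a neutrophil attractant, was at 0, 0.323 and 0.206 and then 11.5, 88.9 and 28.2 (7.94), *Ptx3* at 2.79 to 3.87 and then 19.8 to 65.1 (3.62), and the monocyte attractant *Ccl7* at 9.54 to 21.8 and then 37.6 to 81.5 (2.00). *Cxcl1* rose by 3.31 and *Cxcl12* by 0.96. *Serpinb2*, an inhibitor of plasminogen activators, was not counted in any of the unwounded male sections and stood at 7.75, 35.5 and 23.1 in wounds, at least 198-fold higher against a floor of 3 counts over the group.

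Of 7 matrix proteases and inhibitors 4 were higher and 1 lower, and of 12 matrix genes 2 were higher and 1 lower. *Timp1*, an inhibitor of metalloproteinases, was at 4.36, 4.68 and 2.01 and then 27.7, 122 and 39.1 (log2 difference 4.27, SE 0.603, adjusted p = 0.000119). *Mmp3*, stromelysin, was at 15.5 to 31.3 and then 118 to 222 (2.95), and *Tnc* at 5.00 to 11.6 and then 31.4 to 117 (3.43). *Timp3* ran the other way, from 97.4, 125 and 94.9 to 37.2, 15.1 and 22.7 (-2.20). *Postn*, periostin, rose by 0.79 and lost its call in 10 of 19 alternatives. Leukocyte genes were higher too, among them *Il1b* (4.93), *Arg1* (6.03), *Spp1* (5.62) and *Mmp9* (3.77). Neutrophil markers summed to 45.3 to 255 in *Pi16*+ fibroblasts of wounds and to 0 to 11 in those of unwounded skin, and immune markers to 600 to 712 against 235 to 353. Their part in these rises was not tested.

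Of the 8 adventitial genes 5 were lower, 1 higher and 2 not called (median log2 difference -0.88). *Tnxb* went from 435, 349 and 256 to 144, 117 and 109 (-1.52, SE 0.229, adjusted p = 0.000193), *Cd34* from 275, 242 and 236 to 145, 96.3 and 119 (-1.11), and *Igfbp6* from 92.3, 106 and 109 to 48.6, 29.1 and 38.8 (-1.46). No wound overlapped the unwounded sections in these 3 genes. Other fibroblasts ran alike. Thinned to 40 transcripts, 27.5% to 52.9% of them held *Tnxb* in unwounded and 4.89% to 16.5% in wound sections. For *Cd34* these shares were 27.9% to 40.8% and 7.92% to 17.2%, and for *Igfbp6* 5.95% to 10.7% and 2.94% to 4.44%. For *Anxa3* they overlapped, at 8.22% to 12.2% and 11.4% to 12.8%. *Anxa3* fell by 0.65 (adjusted p = 0.0345), a call lost in 8 of 19 alternatives, and the list had 4 lower genes without Control 3, PITX1+ 3, PITX1+ 4 or the Control wound. *Penk* fell by 1.94, and *Efemp1* and *Col14a1* did not pass (-0.20 and -0.59). *Plac8* was at 16 to 30.2 in unwounded and 48.2 to 85.5 in wound sections (1.38, but 0.91 with few markers of other cell types, adjusted p = 0.106). *Abca8a* had the strongest fall on the interstitial list, of which 4 of 8 were lower and 1 higher. It was at 124, 107 and 90.4 in unwounded and 14.9, 13.4 and 11.7 in wound sections (-3.03, SE 0.268, adjusted p = 3.16e-06). In other fibroblasts *Abca8a* was at 41.6, 26.9 and 31.4 in unwounded and 6.59, 3.94 and 3.34 in wound sections. *Bmp4* fell by 3.02, *Angptl1* by 1.86, and *Igfbp3* by 2.20, and *Des* by 1.77. *Lum* and *Igf1* did not pass (-0.26 and -0.66, adjusted p = 0.423 and 0.0537).

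Among further lists 3 of 10 cell cycle genes were higher and none lower (median 0.93), 1 of 9 immediate early genes higher (*Junb*, 1.71) and 2 lower (*Klf4* and *Jun*), and 2 of 14 lipid and retinoid genes higher and 5 lower. The cell cycle genes *Prc1*, *Uhrf1* and *Hist1h1b* lost their calls in 13 of 18, 11 of 18 and 8 of 19 alternatives, and *Jun* in 12 of 19. Papillary genes gave 1 higher (*Crabp1*, 2.66) and 1 lower of 8, and Wnt and Hedgehog genes 1 higher (*Ccn4*, 2.14) and 2 lower of 11. Of 10 insulin-like growth factor genes 2 were lower, of 10 TGF-beta and BMP genes 2 and of 4 contractile genes 1, and no receptor of 10 was called by edgeR. With few markers of other cell types 22 of 96 genes were called, among them *Saa3*, *Timp1*, *Tnc*, *Mmp3*, *Ccl7* and *Ptx3* higher and *Abca8a*, *Timp3*, *Tnxb*, *Igfbp6*, *Cd34* and *Penk* lower. *Serpinb2*, *Cxcl5*, *Arg1*, *Spp1* and *Il1b* had too few transcripts to be tested there.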

How the data were processed

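Xenium slides were analysed from the deposited transcript and cell tables. The instrument's onboard software (version not given in the sources used here) decoded transcripts, gave each a quality score and drew cell outlines, as deposited by the authors. Counts per cell were summed again from those scoring 20 or more, and the sums matched the deposited counts in 100% of cells. The slides held 6288712 to 10483436 such transcripts, of which 98.1% to 99.1% lay in cells, and control calls were 0.0375% to 0.0981%. The outline tables were not used.

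Sections were found by chaining cells within 100 µm (200 µm on the wounded slide), with at least 2000 cells, and ordered by position. The first section of a slide with 3 skin sections, and the first 2 of the slide with 4, were taken as Control. Cell numbers of skin sections differed from those in the study's supporting data by at most 0.493% for the condition given here and by at least 9.08% for any other. For buccal sections these bounds were 4.91% and 8.65%, and wound sections were not matched. Members and gene lists were chosen with earlier results of these data known. Cells were assigned to another cell type, for distances and for mixed cells, where its markers summed to 3 or more and exceeded *Pdgfra* plus *Col1a1*, skeletal muscle resting on *Des* alone.

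Counts were summed per section and population without the 3 genes of the rule, filtered (filterByExpr), scaled by TMM and tested with edgeR 4.0.16 (quasi-likelihood, R 4.3.3) with Benjamini-Hochberg adjustment over all genes tested. Section was a covariate where both populations were compared, slide for PITX1+ against Control and condition for wounds. Members gave 2345 (Control 2) to 193877 (PITX1+ 4) transcripts per section, so that 1 transcript in Control 2 equals 4.26 per 10000. The fits were tested on simulated data with known changes. Shares, densities and distances were compared by two-sided exact permutation over sections, and p-values for distances were adjusted over 6 cell types (SciPy 1.17.1, NumPy 2.4.6, pandas 2.3.3, Python 3.11.15; figures by Matplotlib 3.10.9).

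Genes were drawn by a rule: the 8 largest called changes each way that ran alike in all sections or did not overlap, the 3 largest called on each list (or the 2 of highest level), all adventitial genes and genes the study names beside fibroblasts. Not every gene so drawn is named in each comparison. Among those left out were *Retnla* (log2 difference -3.11, the largest fall), *Cstdc5* (5.03) and *Sprr2a3* (4.97) in wounds. In skin, *Fcgbp*, *Flg*, *Flg2*, *Krt6a* and *Lor* were among those left out. Genes named outside the rule were chosen after their values were seen. Alternatives were DESeq2 1.42.0, library size scaling, no filter, nuclear transcripts, at least 20 transcripts per cell, limits of 1 or 3 *Pi16* transcripts, cells thinned to 40 transcripts (those with fewer left out, and for shares with a limit of 1 *Pi16* transcript), cells with at most 2 transcripts of other types' markers, other covariates and leaving out each section. Position near muscle or far from keratinocytes, removal of cells that met another type's rule, leaving out Buccal 3, leaving out PITX1+ 1 and 2, and shares in cells with at least 40 transcripts at either limit were added after seeing the data.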

Additional observations from a re-analysis of the deposited data

Results flagged for a closer look

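Of 46 groups of sections checked, 8 had 1 section far from the others. The limit used is one that chance passes in about 1 in 20 groups, and the number of such groups was not tested. PITX1+ 4 held 207.2 *Pi16*+ fibroblasts per mm2, the next PITX1+ section 82.6. Buccal 3, the section with 10 keratinocytes, accounted for 4 of the 8: the median distance of its *Pi16*+ fibroblasts to keratinocytes was 181.56 µm (next section 82.6) and to Schwann cells 108.84 µm (next 45.9), and per 10000 transcripts they held 39.201 of *Adgrl4* (next 17.8) and 334.14 of *Gpx3* (next 68.9). In Buccal 6 the distance to skeletal muscle was 84.94 µm (next 25.2). *Csf1r* stood at 29.646 in Buccal 7 (next 17.4) and *Ptn* at 133.41 in Buccal 2 (next 60.6).

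Differences between *Pi16*+ and other fibroblasts were themselves unequal between skin and buccal mucosa for 28 genes, and between PITX1+ and Control skin for 2 genes by edgeR: *Igfbp5*, with a log2 difference of differences of 2.7095, and *Gpx3*, with 2.3555.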

How the results depend on the processing

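Calls between *Pi16*+ and other fibroblasts in skin (129) numbered 52 with few markers of other cell types, 71 far from keratinocytes and 69 without cells that met another type's rule, and 108 to 138 with 1 section left out. In buccal mucosa the 67 calls became 38 with thinned cells, 7 with few markers and 22 without other types' cells (47 to 73 with 1 section left out). The 28 skin-minus-buccal calls became 15 over nuclei, 0 with few markers, 17 far from keratinocytes, 6 near muscle and 3 without other types' cells (17 to 37). The 1 call for PITX1+ became 4 without a filter, 3 by DESeq2, 2 over nuclei, 10 and 0 at limits of 1 and 3 *Pi16* transcripts, 3 far from keratinocytes, 0 near muscle, 2 without other types' cells, 0 without the slide covariate and 0 without PITX1+ 1 and 2 (0 to 12). The 2 calls for its gap to other fibroblasts became 0 with library size, 1 over nuclei, 6 and 5 at limits of 1 and 3, 6 with few markers, 0 far from keratinocytes, 0 near muscle, 9 without other types' cells and 14 without PITX1+ 1 and 2 (0 to 5). The 37 buccal-against-Control calls became 59 at a limit of 1 and 12 with few markers (22 to 73), and the 89 wound calls 22 with few markers (68 to 81). Fewer genes could be tested with few markers; other causes were not tested.

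Thinned shares kept fibroblasts with at least 40 transcripts. With 1 or more *Pi16* transcripts as the limit, the share difference for PITX1+ was -0.7815 points in these cells and -1.912 after thinning (0.3777 to 3.384 with 1 section left out). For buccal sections it was 8.002 after thinning at that limit, 3.651 after thinning at a limit of 2 and 1.019 of all cells (9.236 to 11.64). The *Pi16* level ran from -0.779 to 0.1211 for PITX1+ and from 0.5634 to 1.248 for buccal sections on the log2 scale. Muscle distance lost its call at a limit of 3 (-36.29 µm), with few markers (-33.65) and without other types' cells (-34.82), and macrophage distance with few markers (-8.457). Without Buccal 3 the differences were 38.84 µm (keratinocyte), -5.381 (endothelial), 5.107 (smooth muscle), -38.96 (skeletal muscle), -8.052 (macrophage) and 8.339 (Schwann). Log2 differences turned sign for *Lum* in skin (-0.3935 with few markers, -0.09283 far from keratinocytes), for *Mmp2* and *Igf1* in buccal mucosa (-0.3946 and -0.4117 with few markers, -0.001465 and -0.03224 without other types' cells), and for *Jun* and *Tgfbr3* between tissues (-0.2778 and -0.01533 with few markers).

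Members and other fibroblasts were paired within sections, but between conditions sections were not paired, as the labels give them no replicate numbers. Slide was a covariate in the fits of PITX1+ against Control. The permutation tests of shares and densities did not use it and exchanged sections across slides. Control 2, with 46 *Pi16*+ fibroblasts, and Buccal 6, with 47, limit what low genes can show.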
